A study of Rattus norvegicus with 20 samples.

Results

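Fatty acids are built from acetyl-CoA, and 8 genes of that route and of its control were followed here in cultured rat islets: the regulators Srebf1 and Mlxipl, the supply enzymes Acly and Me1, the synthesis enzymes Acaca and Fasn, the elongase Elovl6 and the desaturase Scd. They were chosen as a list by function, but with earlier results of these data known. All 8 of 8 were found among 14218 measured genes, each by its brightest probe set. Islets came from male Wistar rats aged 8 weeks and were kept in RPMI medium with 10% serum and 8 mM glucose. They stayed untreated or received an adenovirus for GFP, Nr4a1 or Nr4a3, with virus present for 18 h and collection at 48 h, and each of the 4 groups had 5 arrays. The treatment protocol of the labels names beta-galactosidase and Nkx6.1 viruses instead, so groups follow the titles, and the arrays are called by their label throughout. Nr4a1 and Nr4a3 are orphan nuclear receptors, and the series title concerns cell cycle genes that they raise. The labels call the replicates biological but do not say from how many animals each came, so p-values measure the spread between these samples.

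ATP citrate lyase, the product of Acly, makes cytosolic acetyl-CoA from citrate, and malic enzyme, from Me1, supplies NADPH. Acetyl-CoA carboxylase (Acaca) makes malonyl-CoA, fatty acid synthase (Fasn) joins these units into palmitate, and Elovl6 and Scd lengthen and desaturate the product. The transcription factor SREBP-1 (Srebf1) responds to insulin and ChREBP (Mlxipl) to glucose, and both can raise the enzyme genes. In beta cells malonyl-CoA also restrains fatty acid oxidation when glucose is high, and citrate export and malic enzyme belong to cycles linked to insulin secretion.

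Fasn was lower in the islets labelled Nr4a1 than in those with GFP virus, by 1.26-fold, and it was 1.33-fold lower than in those labelled Nr4a3. The second call was lost in a fit to the 10 arrays of both groups (limma adjusted p = 0.154), with averaged probe sets (adjusted p = 0.0534) and on the dimmer Fasn probe set (adjusted p = 0.365). The other 7 genes did not pass the test in either comparison in the main fit, 1 limma model of all 20 arrays. Acly and Mlxipl passed as lower in the arrays labelled Nr4a1 than in GFP when 1 outlying array of another group, Nr4a3 replicate 2, was left out. The share of all genes called lower there then rose from 2.55% to 6.86%. From untreated islets, Mlxipl in the arrays labelled Nr4a1 differed by a log2 of -0.05 ± 0.14 (SE). Acaca in those arrays differed from GFP by a log2 of 0.02 ± 0.06 (SE). No member passed in the arrays labelled Nr4a3 against GFP or in GFP against untreated islets. Of 75 other lipid synthesis genes 6 were called in the arrays labelled Nr4a1 against GFP, where 8.71% of all genes were. Leaving out each array in turn gave 2 to 22 calls. The 22 came without Nr4a3 replicate 2, where 19.1% of all genes were called. Among the 6 of the main fit, 4 of 9 genes of fatty acid elongation rose, where 6.16% of all genes were called higher.

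Values are log2 of the authors' probe set intensity, and a change is the first group's mean minus the second's. Probe sets differ in how brightly they hybridise, so a level of 1 gene is not compared with that of another. A gene was called at a limma adjusted p under 0.05, adjusted by the Benjamini-Hochberg method over all genes of a comparison. The number of arrays limits the precision. Nr4a3 replicate 2 stood apart: across genes, which are not independent replicates, it correlated at a mean of 0.941 with the rest, where every other array reached 0.982 or more. The 3' beta-actin control exceeded the 5' one by a log2 of 4.62 in it and by at most 2.21 elsewhere. Results are given with and without that array. The array's own probe sets for both receptors were read as a check. The Nr4a1 gene differed from GFP by a log2 of -0.07 ± 0.09 (SE) in the arrays labelled Nr4a1, and the Nr4a3 gene by 0.19 ± 0.10 in those labelled Nr4a3 (limma adjusted p = 0.421) but by 0.44 ± 0.10 in those labelled Nr4a1 (limma adjusted p = 0.00562). Their position in the transcript, and so whether they can detect the viral RNA, was not known here, and the labels remain unchecked. The insulin genes Ins1 and Ins2 and the amylin gene Iapp, which mark beta cells, had group means of 14.32 to 14.98.

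**Figure D1:**
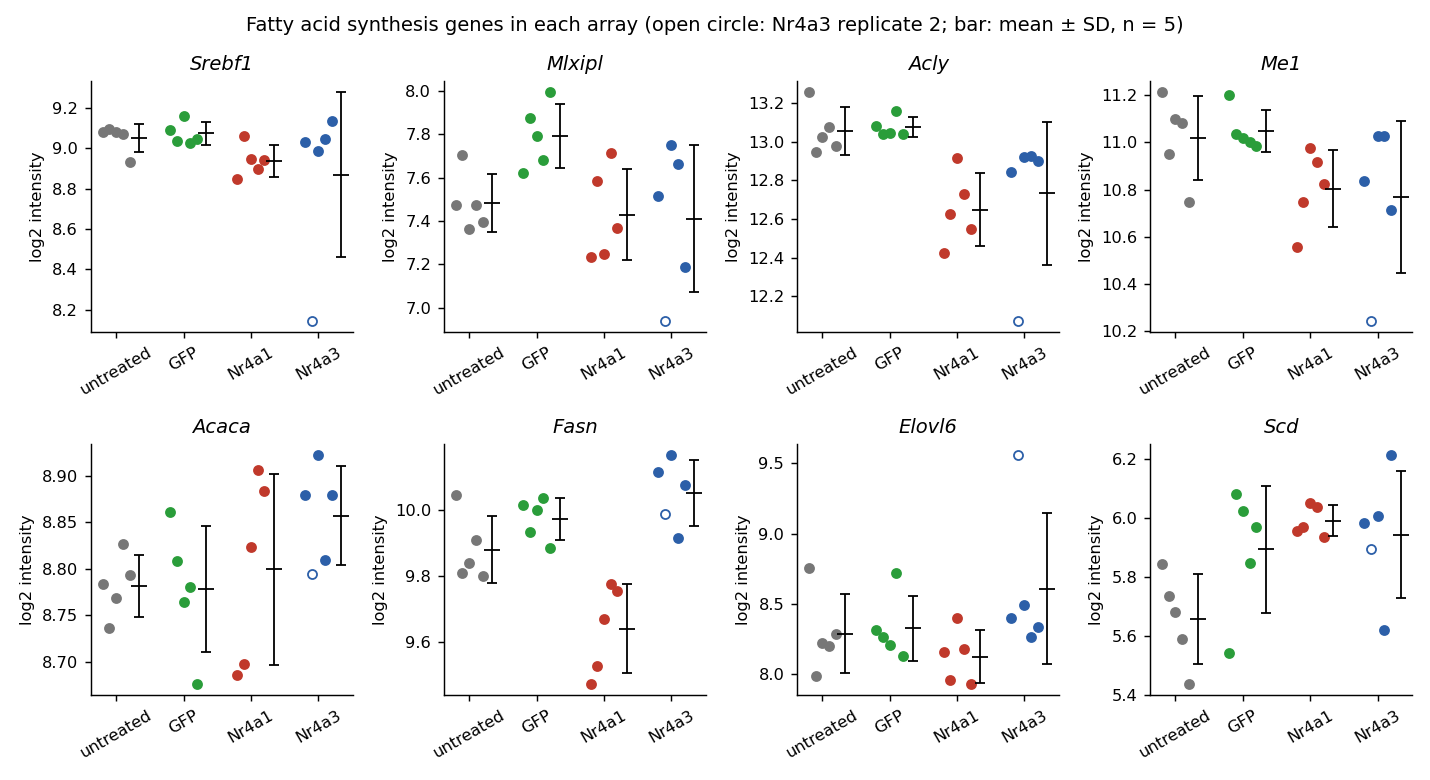
Each point is 1 array, with log2 intensity on the vertical axis and the 4 groups on the horizontal axis, and bars give the mean ± SD of 5 arrays. All 5 Fasn values of the arrays labelled Nr4a1 (9.47 to 9.77) lie below every other array, and the open circle, Nr4a3 replicate 2, is the lowest or highest point for Srebf1, Mlxipl, Acly, Me1 and Elovl6.

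The regulators come first. Srebf1 encodes SREBP-1, a membrane-bound factor that is cut free to enter the nucleus. Its log2 values were 9.08, 9.10, 9.08, 9.07 and 8.93 in untreated islets and 9.09, 9.04, 9.16, 9.03 and 9.05 with GFP. They were 8.85, 9.06, 8.94, 8.89 and 8.94 in the arrays labelled Nr4a1 and 9.03, 8.14, 8.99, 9.05 and 9.13 in those labelled Nr4a3. In each comparison of 2 groups the ranges overlapped. Nr4a3 replicate 2 lay far below the rest, and untreated replicate 5 lay below its own group. The change from GFP was -0.14 ± 0.13 (SE, n = 5 per group, limma adjusted p = 0.673) in the arrays labelled Nr4a1. For those labelled Nr4a3 it was -0.21 ± 0.13, and -0.02 ± 0.06 without replicate 2. A second, dimmer Srebf1 probe set differed from GFP by 0.04 and -0.05. No Srebf1 difference passed.

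Mlxipl encodes ChREBP, which carries the glucose signal to glycolytic and lipogenic genes. Its values were 7.47, 7.70, 7.36, 7.47 and 7.40 in untreated islets and 7.62, 7.87, 7.79, 7.68 and 7.99 with GFP. They were 7.24, 7.59, 7.25, 7.71 and 7.37 in the arrays labelled Nr4a1 and 7.51, 6.94, 7.75, 7.66 and 7.19 in those labelled Nr4a3. GFP had the highest mean of the 4 groups, 7.79 ± 0.15 (SD, n = 5), but its range overlapped that of every other group. The change from GFP was -0.36 ± 0.14 (SE, n = 5 per group, limma adjusted p = 0.116) in the arrays labelled Nr4a1, and it passed without Nr4a3 replicate 2, with the same value and an SE of 0.11 (limma adjusted p = 0.0274). In the arrays labelled Nr4a3 it was -0.38 ± 0.14, and -0.26 ± 0.12 without replicate 2, and neither passed. Against untreated islets both groups differed by little, -0.05 ± 0.14 and -0.07 ± 0.14. GFP was above untreated by 0.31 ± 0.14, which did not pass either (unadjusted p = 0.0336 in limma).

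Acly had the lowest change from GFP of the 8 genes in the arrays labelled Nr4a1. Its values were 13.26, 12.94, 13.02, 13.08 and 12.98 in untreated islets and 13.08, 13.04, 13.04, 13.16 and 13.04 with GFP. They were 12.42, 12.62, 12.92, 12.73 and 12.55 in the arrays labelled Nr4a1 and 12.85, 12.07, 12.92, 12.93 and 12.90 in those labelled Nr4a3. The untreated and GFP arrays lay together, and all 10 arrays of the other groups lay below all 10 of these. The change from GFP in the arrays labelled Nr4a1 was -0.43 ± 0.13 (SE, n = 5 per group), 1.34-fold lower, with a limma adjusted p of 0.0518, and it passed without Nr4a3 replicate 2 (adjusted p = 6.79e-04, SE 0.08) and without Nr4a1 replicate 3 (adjusted p = 0.0301). In the arrays labelled Nr4a3 the change was -0.34 ± 0.13 (limma adjusted p = 0.254), and -0.18 ± 0.08 without replicate 2 (adjusted p = 0.291). The direct difference between both receptor groups was -0.08 ± 0.13, and -0.25 ± 0.08 without that array (limma adjusted p = 0.183).

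The promoters of Acly and Mlxipl are shown because both genes were lower than GFP in the same comparison once Nr4a3 replicate 2 was left out. They are RefSeq's sequences of the GRCr8 build, 250 bases before to 50 bases after the start, both on the minus strand, at chr10:85963582-85963881 for Acly and chr12:27213611-27213910 for Mlxipl. Capitals mark CCAAT on either strand, which reads as ATTGG where it lies on the other strand.
Acly: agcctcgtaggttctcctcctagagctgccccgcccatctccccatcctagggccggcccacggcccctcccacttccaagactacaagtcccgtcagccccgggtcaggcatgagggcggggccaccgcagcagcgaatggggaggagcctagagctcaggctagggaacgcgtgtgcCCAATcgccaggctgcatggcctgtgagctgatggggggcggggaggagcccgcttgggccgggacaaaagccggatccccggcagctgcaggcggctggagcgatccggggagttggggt
Mlxipl: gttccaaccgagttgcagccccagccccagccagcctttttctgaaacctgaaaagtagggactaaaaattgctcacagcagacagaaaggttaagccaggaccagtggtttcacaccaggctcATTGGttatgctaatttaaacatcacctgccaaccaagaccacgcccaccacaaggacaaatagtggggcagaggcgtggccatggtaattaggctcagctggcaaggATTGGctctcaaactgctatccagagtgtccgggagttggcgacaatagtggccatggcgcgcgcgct
CCAAT occurred once in the Acly promoter and at 2 places in that of Mlxipl, and 37.5% of 33469 RefSeq promoters of this length hold it. Also searched on both strands were AAAGGTCA, the monomer element of NR4A receptors (in 1.43% of all promoters), TCACNCCAC, a form of the sterol regulatory element (1.12%), and CACGTG, an E-box core (6.42%). None of these 3 was found in the 300 bases of the 5 members matched in the promoter table (Acly, Mlxipl, Srebf1, Me1 and Scd), which says only that the letters are not in these windows. No motif overlapped another in the members' promoters. Fasn, Acaca and Elovl6 were not matched in it.

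Me1 is represented by 2 bright probe sets. The brighter had values of 11.21, 10.95, 11.10, 11.08 and 10.75 in untreated islets and ran from 10.99 to 11.20 with GFP. It had 10.56, 10.75, 10.98, 10.92 and 10.82 in the arrays labelled Nr4a1 and 10.84, 10.24, 11.03, 11.03 and 10.71 in those labelled Nr4a3. All 5 arrays labelled Nr4a1 lay below all 5 GFP arrays, while the untreated range overlapped that of each other group. The change was -0.24 ± 0.13 (SE, n = 5 per group, limma adjusted p = 0.302). The other probe set changed by -0.47 ± 0.14 (limma adjusted p = 0.0652 over all 31099 probe sets), with values of 10.37, 10.69, 10.83, 10.13 and 10.54 in the arrays labelled Nr4a1 and 11.10, 10.89, 11.01, 10.96 and 10.93 with GFP. It passed without Nr4a3 replicate 2 (limma adjusted p = 0.0331), and the brighter one did not (limma adjusted p = 0.0727). Against GFP, the arrays labelled Nr4a3 differed by -0.28 ± 0.13 on the brighter probe set and by -0.15 ± 0.10 without replicate 2, and neither passed.

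Acaca, whose enzyme catalyses the committed step, held the narrowest range of the 8 genes. All 20 arrays lay between 8.68 and 8.92, and the group means ran from 8.78 with GFP to 8.86 ± 0.05 (SD, n = 5) in the arrays labelled Nr4a3. The interval of the change from GFP (95%) was -0.11 to 0.15 in the arrays labelled Nr4a1 and -0.05 to 0.21 in those labelled Nr4a3. A dimmer Acaca probe set differed from GFP by -0.09 and -0.07.

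Fasn was the 1 member that passed in the main fit with all arrays, while Acly also passed under several alternatives given below. Its values were 10.04, 9.81, 9.84, 9.91 and 9.80 in untreated islets and 10.01, 9.93, 10.00, 10.04 and 9.88 with GFP. They were 9.47, 9.53, 9.67, 9.77 and 9.75 in the arrays labelled Nr4a1 and 10.11, 9.99, 10.16, 9.91 and 10.07 in those labelled Nr4a3. Every array labelled Nr4a1 lay below the other 15, and the ranges of the other 3 groups overlapped. An RNA quality control moved with this: the 3' GAPDH control exceeded the 5' one by a log2 of 0.27 to 0.36 in the arrays labelled Nr4a1, by 0.50 to 0.74 with GFP and by at least 0.41 in each of the other 15 arrays. The same difference for beta-actin averaged 1.69 in the arrays labelled Nr4a1 and 1.99 with GFP, and the part of either in the Fasn and Acly differences was not tested. The change from GFP in the arrays labelled Nr4a1 was -0.33 ± 0.07 (SE, n = 5 per group, limma adjusted p = 0.00683, interval -0.49 to -0.18), with lower values in 5 of 5 arrays. Leaving out each of the 20 arrays in turn kept it between -0.37 and -0.29, with limma adjusted p from 0.00215 to 0.0287. Of all genes, 5.68% had a lower change. The dimmer Fasn probe set also fell, by 0.38 on the log2 scale (limma adjusted p = 0.0464 over all probe sets), from 8.19, 8.13, 8.21, 8.25 and 8.13 with GFP to 7.58, 7.65, 7.85, 7.91 and 8.05.

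In order of Fasn level, the arrays labelled Nr4a1 averaged 9.64 ± 0.13 (SD, n = 5), the untreated 9.88 ± 0.10, the GFP 9.97 ± 0.06 and those labelled Nr4a3 10.05 ± 0.10. The first step in that order, -0.24 ± 0.07 (SE), did not pass with all arrays (limma adjusted p = 0.0538) and passed without Nr4a3 replicate 2 (adjusted p = 0.0210). The steps from untreated to GFP (0.09 ± 0.07, SE) and from GFP to the arrays labelled Nr4a3 (0.08 ± 0.07) did not pass. The difference between the receptor groups was -0.41 ± 0.07 (SE, n = 5 per group, limma adjusted p = 0.00915), and -0.43 ± 0.07 without Nr4a3 replicate 2 (adjusted p = 0.00553). On the dimmer Fasn probe set it was -0.31 ± 0.11 (limma adjusted p = 0.365), and -0.43 when that array was dropped (adjusted p = 0.0161). A fit to only the 10 arrays of both receptor groups, where 1 of all genes was called, ended the call (-0.41, limma adjusted p = 0.154), as did averaging both probe sets (-0.36, limma adjusted p = 0.0534).

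Elovl6 lengthens the palmitate that Fasn makes. Its values were 8.75, 7.98, 8.22, 8.20 and 8.29 in untreated islets and 8.31, 8.26, 8.20, 8.72 and 8.13 with GFP. They were 8.16, 7.95, 8.40, 8.17 and 7.93 in the arrays labelled Nr4a1 and 8.40, 9.56, 8.49, 8.26 and 8.33 in those labelled Nr4a3. The 9.56 of Nr4a3 replicate 2 was the highest of all 20 arrays. The change from GFP was -0.20 ± 0.20 (SE, n = 5 per group) in the arrays labelled Nr4a1. It was 0.28 ± 0.20 in those labelled Nr4a3, and 0.05 ± 0.14 without replicate 2. The direct difference, -0.49 ± 0.20 (limma adjusted p = 0.359), was -0.25 ± 0.14 without that array, and neither passed.

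Scd encodes stearoyl-CoA desaturase, and it was dim here: 22.6% of genes had a lower mean. Its values were 5.84, 5.74, 5.68, 5.59 and 5.44 in untreated islets, 5.54, 6.08, 6.02, 5.85 and 5.97 with GFP, and 5.96, 5.97, 6.05, 6.04 and 5.93 in the arrays labelled Nr4a1. Those labelled Nr4a3 gave 5.98, 5.90, 6.01, 5.62 and 6.21. All 5 arrays labelled Nr4a1 lay above the untreated ones, a difference of 0.33 ± 0.11 (SE, limma adjusted p = 0.0666, and 0.0346 without Nr4a3 replicate 2). Against GFP the differences were 0.10 ± 0.11 and 0.05 ± 0.11, and no member of any role passed as higher than GFP in either receptor group.

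**Figure D2:**
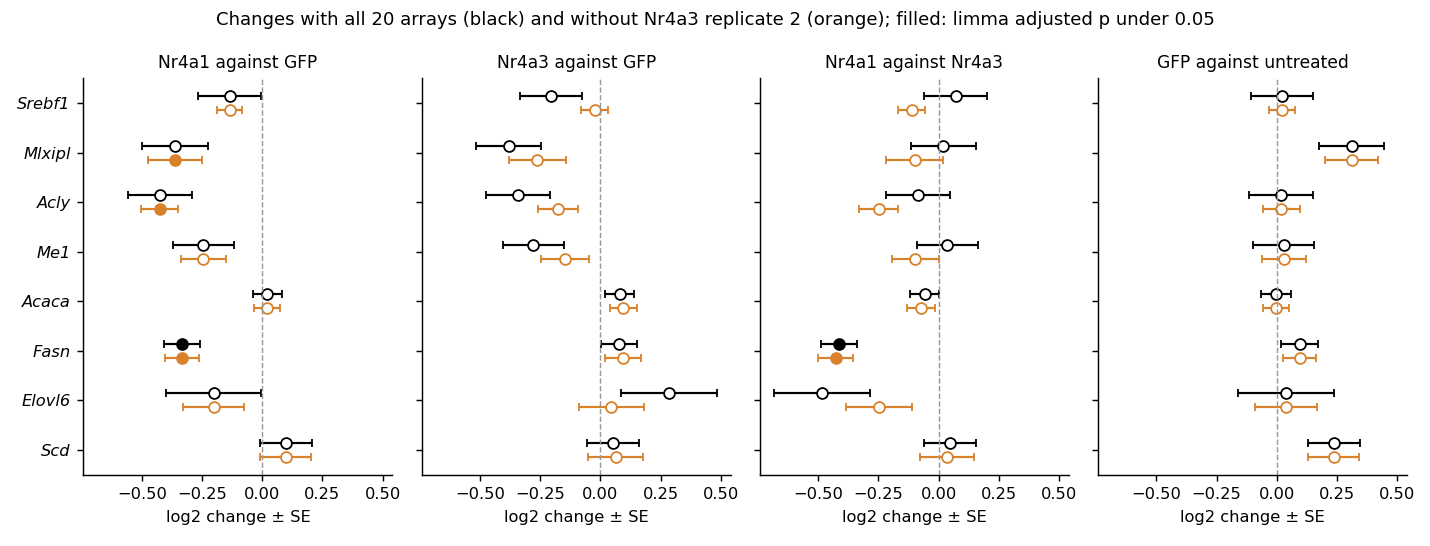
The horizontal axis is the log2 change ± SE, the vertical axis the 8 genes and each panel 1 comparison, with all 20 arrays in black, without Nr4a3 replicate 2 in orange, and genes that passed filled. Fasn is filled in both comparisons that hold the arrays labelled Nr4a1, at -0.33 and -0.41, and the Nr4a3 changes of Srebf1, Acly, Me1 and Elovl6 move towards 0 in orange.

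As a group the 8 genes had a median change of -0.22 in the arrays labelled Nr4a1 against GFP, beside -0.0013 over all genes. Of the 8, 1 was called, lower, where 2.55% of all genes were called lower, 6.16% higher and 8.71% in either direction. Without Nr4a3 replicate 2, 3 of 8 were called, all lower, against 6.86% of all genes called lower and 19.1% in either direction. All 5 arrays lay below all GFP arrays for 3 of 8 members (Acly, Me1 and Fasn), against 5.63% of all genes. In the arrays labelled Nr4a3 against GFP, limma called 0 of 8, with 3 at an unadjusted p under 0.05 (Mlxipl, Acly and Me1, all lower), where 1.93% of all genes were called (1.75% higher), or 3.71% without replicate 2, and 12.8% had an unadjusted p under 0.05. Ranges did not overlap for 1 of 8, Acly, lower, against 1.51% of all genes. The median change of the 8 was -0.08, and 0.01 without replicate 2. Both comparisons share the GFP arrays. Between the receptor groups 1 of 8 was called, lower, against 0.0352% of all genes called lower and 0.633% called in either direction. Without Nr4a3 replicate 2, 0.12% of all genes were called lower, and 0.935% had lower, non-overlapping ranges with all arrays. In GFP against untreated, limma called 0 of 8 and 0% of all genes, with 2 of 8 (Mlxipl and Scd, both higher in GFP) and 2.90% of all genes at an unadjusted p under 0.05. In the arrays labelled Nr4a1 against untreated, limma called 0 of 8, with 3 at an unadjusted p under 0.05, where 7.94% of all genes were called and 20.8% had an unadjusted p under 0.05. Without Nr4a3 replicate 2 it called 3 of 8 (Acly, Fasn and Scd) and 19.1% of all genes.

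Cell type markers moved in the same comparison. Of 17 measured acinar cell genes, which encode digestive enzymes and their regulators, 15 rose in the arrays labelled Nr4a1 against GFP and none fell, and their mean log2 value ranged from 9.79 to 11.13 there, from 6.91 to 9.37 with GFP, from 7.10 to 10.26 in untreated islets and from 8.76 to 9.52 in the arrays labelled Nr4a3. The 2 that did not rise, Ptf1a and Bhlha15, are transcription factors of acinar cells and changed by at most 0.24. Of 9 beta cell genes, 4 fell (Pdx1, Nkx6-1, Slc2a2 and Kcnj11) and none rose. Ins1, Ins2 and Iapp changed by a log2 of 0.0025, -0.01 and -0.02, at group means of 14.32 to 14.98. Whether probe sets this bright can show a change was not tested. Mafa (-0.80) and Abcc8 (-0.60) did not pass. The mean of the 9 ranged from 11.83 to 12.30 in the arrays labelled Nr4a1 and from 12.37 to 12.51 with GFP. Of 8 endothelial genes 7 fell. Against GFP, Kdr and Flt1 of these 8 also fell in the arrays labelled Nr4a3, where 1.93% of all genes were called. No acinar or beta cell gene was called there. The median changes there were -0.51 (endothelial), -0.35 (beta) and 0.89 (acinar), or -0.59, -0.19 and 0.93 without Nr4a3 replicate 2. Without that array, 3 of the 8 endothelial genes were called lower (Flt1, Emcn and Cd93), and 3.71% of all genes were called. None of 8 adipocyte genes passed. Group means were 4.25 to 5.24 for Adipoq, Plin1, Lep, Cfd and Adrb3, 5.90 to 6.38 for Fabp4, 7.84 to 7.92 for Lipe and 8.11 to 8.56 for Cidec, and the mean over the 8 ranged from 5.55 to 5.68 in the arrays labelled Nr4a1 and from 5.64 to 5.83 with GFP. The part of the acinar, beta and endothelial markers in the Fasn and Acly differences was not tested. In whole islets, fewer cells of a type and less RNA per cell cannot be told apart.

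**Figure D3:**
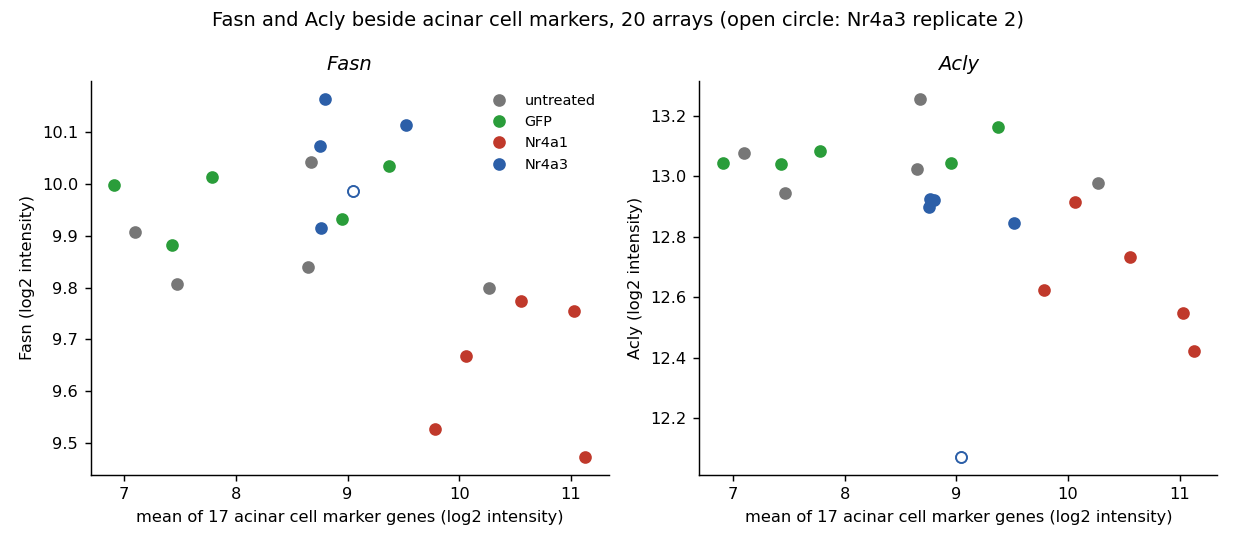
The horizontal axis is the mean log2 intensity of 17 acinar genes and the vertical axis the log2 intensity of Fasn (left) or Acly (right), with 1 point per array coloured by group. The arrays labelled Nr4a1 lie at the right, between 9.79 and 11.13, and untreated replicate 5, at 10.26, is the other array in that range. The 5 untreated arrays had acinar means of 8.67, 7.47, 8.65, 7.10 and 10.26, in order of replicate. Their Fasn values were 10.04, 9.81, 9.84, 9.91 and 9.80, and their Acly values 13.26, 12.94, 13.02, 13.08 and 12.98. A relation between these values was not tested.

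Within groups, some members varied together. Deviations of each array from its group mean were correlated for 28 pairs, with permutation within groups and adjustment over the pairs. How many pairs among all genes correlate as strongly was not computed. The acinar mean also varied within groups, as from 6.91 to 9.37 with GFP, and its part in these correlations was not tested. Fasn and Acaca, the neighbouring steps of the route, correlated with Pearson's r = 0.79 over 20 arrays (permutation p = 4.9e-04, adjusted 0.00686; Spearman's rho = 0.76, permutation p = 0.00161, adjusted 0.0225), and r was 0.73 without the 2 arrays farthest from the median of Acaca. Acly and Me1 correlated with r = 0.86 (permutation p = 1.4e-04, adjusted 0.00392; rho = 0.77, permutation p = 3.8e-04, adjusted 0.0106), and with 0.74 without the 2 farthest arrays of Acly. Both held without Nr4a3 replicate 2 by Pearson's r, at 0.79 (adjusted permutation p = 0.0190) and 0.70 (0.0440), while rho then gave adjusted permutation p of 0.0683 and 0.0591. Srebf1 and Acly had r = 0.83 over 20 arrays (permutation p = 0.0601, adjusted 0.187; rho = 0.52, permutation p = 0.0626, adjusted 0.219), but 0.17 over the 19 others. Acly and Elovl6 turned from r = -0.44 (permutation p = 0.205, adjusted 0.383) to 0.68 (adjusted permutation p = 0.0440, with 0.244 for rho) when that array was left out.

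Genes with a profile like that of Fasn were ranked by Pearson's r of log2 values over the 20 arrays, among 7103 genes brighter than the median and without the members. The highest were Adnp (r = 0.78), Rb1 (0.77), Svil (0.76), Dapk1 (0.76) and Bicral (0.75), and the lowest were RGD1564887 (-0.76), Prxl2b (-0.72) and Glis2 (-0.72). These values describe the ranking, carry no test, and include the difference between groups. Adnp averaged 10.21 in the arrays labelled Nr4a1 and 10.38 to 10.44 in the other groups. Prxl2b averaged 9.53 in the arrays labelled Nr4a1 and 8.08 to 8.41 elsewhere.

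A list of 75 other measured genes of lipid synthesis was read in the same fit. In the arrays labelled Nr4a1 against GFP, 5 rose and 1 fell, with a median change of 0.01, and 14 rose and 8 fell without Nr4a3 replicate 2. Leaving out Nr4a1 replicate 1 lowered the 6 to 2, and leaving out GFP replicate 1, 4 or 5 or Nr4a1 replicate 4 lowered it to 3. Of all genes, 8.71% were called. In the arrays labelled Nr4a3, 1 of 75 rose and none fell, 3 rose without replicate 2 and 0 without replicate 1.

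Of the 6 called genes, 4 were among 9 of fatty acid elongation. Hacd1, a dehydratase of the elongation cycle, rose by 0.85 ± 0.17 (SE, n = 5 per group, limma adjusted p = 0.00248) in the arrays labelled Nr4a1, from 7.24 to 7.60 with GFP to 7.86 to 8.52, and by 0.80 ± 0.17 in those labelled Nr4a3 (limma adjusted p = 0.0161), where values ran from 7.66 to 8.78. Hsd17b12, a reductase of the same cycle, rose by 0.27 ± 0.06 (limma adjusted p = 0.00379) in the arrays labelled Nr4a1, from at most 10.66 with GFP to at least 10.81. The elongases Elovl1 (0.40 ± 0.11, limma adjusted p = 0.0254) and Elovl5 (0.33 ± 0.09, adjusted p = 0.0315) rose there too. For each of these 4 genes, all 5 arrays labelled Nr4a1 lay above all GFP arrays. The acinar markers given above rose in the same arrays, and their part in these rises was not tested.

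Prkab1, a regulatory subunit of the AMP-activated kinase that inhibits acetyl-CoA carboxylase, rose by 0.30 ± 0.09 (limma adjusted p = 0.0447), with 9.26 to 9.59 in the arrays labelled Nr4a1 and 9.06 to 9.17 with GFP. Pklr, a pyruvate kinase gene and a known ChREBP target, fell by 0.59 on the log2 scale (SE 0.15, limma adjusted p = 0.0161), from 8.46 to 8.88 with GFP to 7.86 to 8.60, with overlapping ranges. Among 6 glucose-responsive targets it was the 1 that passed in the main fit. In that fit, none of 10 acetyl-CoA and NADPH supply genes, 7 of fatty acid synthesis or 4 of desaturation passed in either GFP comparison. Nor did any of 18 genes of activation and glycerolipid synthesis or 3 of malonyl-CoA turnover. Without Nr4a3 replicate 2, where 12.2% of all genes were called higher and 6.86% lower in the arrays labelled Nr4a1, the calls there were 3 higher of 10 supply genes, 1 higher of 7 synthesis genes, 5 higher of 9 elongation genes and 1 higher of 3 malonyl-CoA genes. They were 1 higher and 3 lower of 18 regulators, 1 higher and 2 lower of 6 glucose-responsive genes, 2 higher and 3 lower of 18 activation and glycerolipid genes, and none of 4 desaturation genes.

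**Figure D4:**
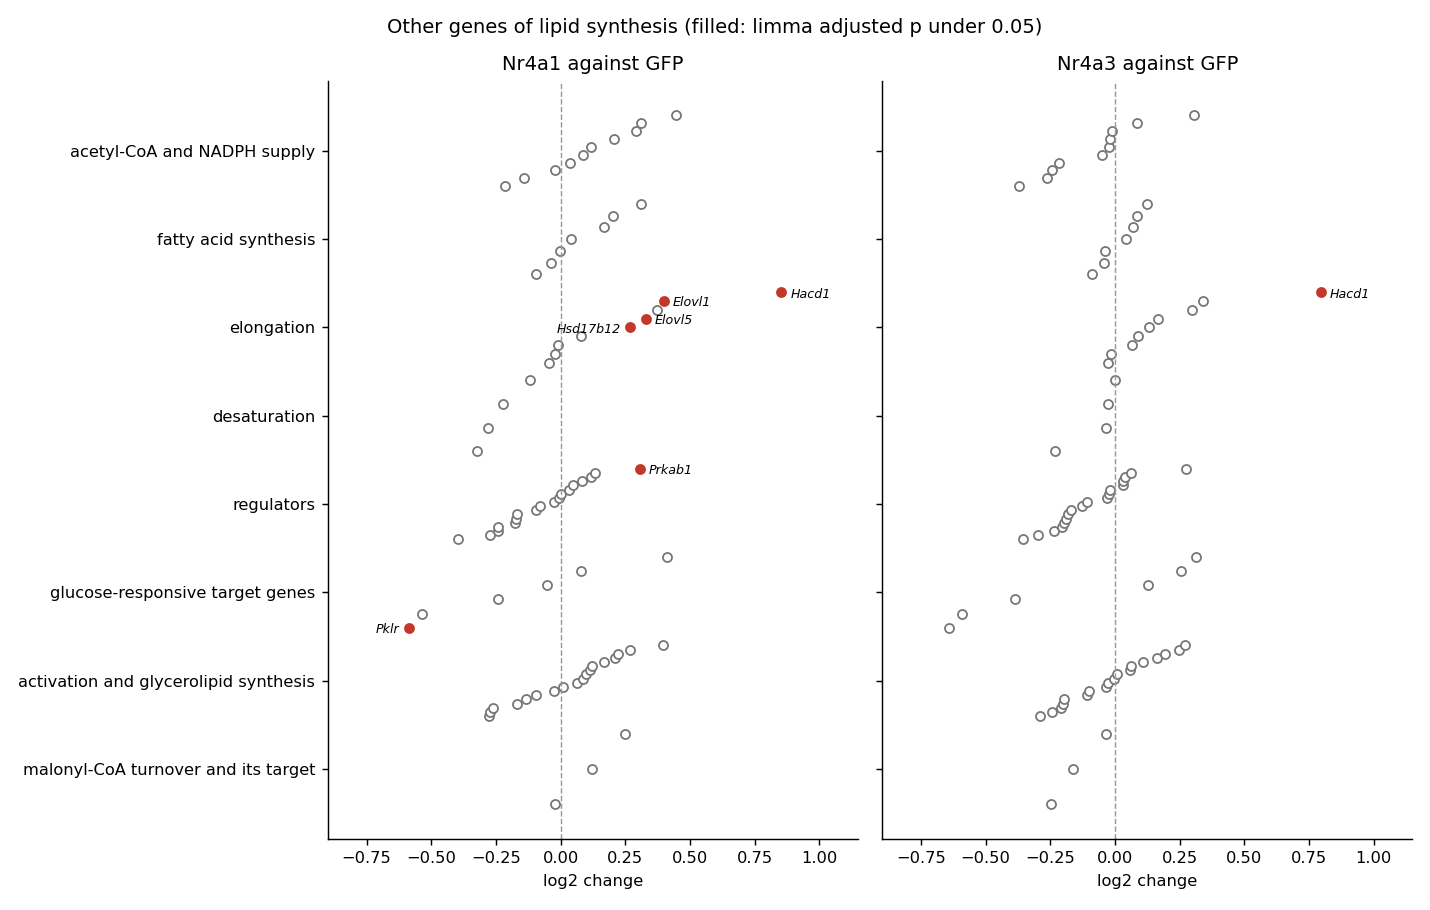
Each point is 1 of 75 other lipid synthesis genes, with the log2 change against GFP on the horizontal axis and the sublist on the vertical axis, and genes that passed are filled and named. In the left panel 4 elongation genes lie at 0.27 to 0.85 and Pklr at -0.59, and in the right panel Hacd1 at 0.80 is the 1 filled point.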

How the data were processed

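RNA of 20 rat islet samples was hybridised to 1 expression array each. The authors made the deposited intensity values with RMA, per the submitters' processing notes, which name no version. The values proved linear where a log scale had been assumed, and log2 was taken without rescaling. Of 31099 probe sets, 20832 carry 1 gene symbol, 436 several and 9831 none in the platform annotation; 20764 were checked for newer symbols and 0 changed. Each of 14218 genes was read from its brightest probe set by mean. All 20 arrays entered 1 limma model with a mean for each group (limma 3.58.1, R 4.3.3, 16 residual and 3.63 prior degrees of freedom, two-sided). In data simulated for Nr4a1 against GFP over 14218 genes, 61% of 100 genes changed by a log2 of 0.5 and 93% of 100 changed by 1 were recovered, with 7.78% of calls false. The simulation changed 200 genes and drew independent normal noise, with the same spread in all groups for each gene. The data had 1239 calls in that comparison and 1 array that stood apart, so these shares need not hold for them. Correlations used 100000 permutations.

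The members and lists were chosen with earlier results of these data known. Named genes are the 8 members, up to 12 list genes with the smallest adjusted p under 0.05, and the 5 genes most and 3 least like Fasn. Same-numbered arrays deviated together (correlation above 0.1) in 7 of 30 pairs, and the correlations ran from -0.297 to 0.495. The main fit did not pair arrays by number. Whether arrays of the same number share animals was not tested. In the main fit, the duct, stellate and fibroblast, macrophage and leukocyte, and other islet hormone lists had no call against GFP. Alternatives were fits to the 10 arrays compared, a replicate block, trended and robust variance, array weights, median centring, repeated quantile normalization, a filter on dim genes, averaging the probe sets of each gene, and leaving out each array.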

Additional observations from a re-analysis of the deposited data

Results flagged for a closer look

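A single array lay far from the other 4 of its group, by Dixon's ratio of the gap to the range above 0.71, in 5 of 32 sets (8 genes in 4 groups), and chance gives about 1 in 20. Of these, 3 were Nr4a3 replicate 2: Acly at 12.07, next to 12.85 (ratio 0.906), Srebf1 at 8.14, next to 8.99 (0.852), and Elovl6 at 9.56, next to 8.49 (0.826). Me1 in GFP replicate 1 was 11.20, next to 11.04 (0.769), and Srebf1 in untreated replicate 5 was 8.93, next to 9.07 (0.855). The change of Fasn from GFP differed between the receptor groups, by -0.41 in the arrays labelled Nr4a1 minus those labelled Nr4a3, by limma's test of the difference given above.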

How the results depend on the processing

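Fasn in Nr4a1 against GFP stayed called in every alternative. Against the 1 member, 6 list genes and 1239 genes called there, the fit to 10 arrays called 3, 20 and 2854 and array weights 4, 26 and 3578, and leaving out 1 array gave 1 to 3, 2 to 22 and 742 to 2715. Median centring, repeated quantile normalization, the dim filter and averaged probe sets each called 2 members, Fasn and Acly. In Nr4a3 against GFP (0, 1 and 274), the fit to 10 arrays called 0 list genes and 122 genes, array weights 6 and 1027, and leaving out 1 array gave 0 to 3 and 127 to 527. In Nr4a1 against Nr4a3 (1, 0 and 90), the fit to 10 arrays called 0 members and 1 gene and averaged probe sets 0 members; array weights called 1 list gene and 274 genes, median centring and quantile normalization 1 list gene each, and leaving out 1 array gave 43 to 133 genes. The replicate block called 1, 5 and 1088 in Nr4a1 against GFP, with Fasn at -0.33, and changed no call of a member. The cause was not tested. The following log2 changes, none of them called, turned sign under another setting. In Nr4a1 against GFP, the sign turned for Acaca (-0.00370, array weights), Acaca (-0.00839, median centring), Acaca (-0.0356, mean of all probe sets per gene). In Nr4a3 against GFP, the sign turned for Scd (-0.00395, quantile normalization repeated). In Nr4a1 against Nr4a3, the sign turned for Srebf1 (-0.0760, array weights), Mlxipl (-0.0841, array weights), Me1 (-0.12, array weights), Mlxipl (-0.0197, median centring), Me1 (-0.00361, median centring), Me1 (-0.0227, quantile normalization repeated), Me1 (-0.0715, mean of all probe sets per gene). In GFP against untreated, the sign turned for Acaca (4.66e-04, median centring), Acly (-0.0146, quantile normalization repeated), Me1 (-4.95e-04, quantile normalization repeated). Others turned sign when 1 array was left out. In Nr4a1 against GFP, Acaca ran from -0.00566 to 0.0495. In Nr4a3 against GFP, Scd ran from -0.0370 to 0.13. In Nr4a1 against Nr4a3, Mlxipl ran from -0.10 to 0.10, Srebf1 ran from -0.11 to 0.14, Me1 ran from -0.10 to 0.10, Scd ran from -0.0346 to 0.11. In GFP against untreated, Me1 ran from -0.0389 to 0.0776, Acly ran from -0.00953 to 0.0681, Elovl6 ran from -0.0615 to 0.15, Srebf1 ran from -0.00880 to 0.0330, Acaca ran from -0.0240 to 0.0223.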
